A study of Mus musculus with 49 samples.

Results

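The 39 genes described here are cell cycle and DNA replication genes, taken from a written list of proliferation genes and matched by Entrez ID to the 24475 genes of the skin and colon tables. The list itself uses no expression value, but it was drawn up with earlier results of these data known. By role they were 8 genes of origin licensing, 5 of the replication fork and nucleotide supply, 5 of the control of the G1/S step, 8 of the control of the G2/M step, 11 of the spindle, kinetochore and cytokinesis, and 2 of chromosome structure. RNA-seq was run on 23 skin and 26 colon libraries of DITRA-like mice, a model named for the human deficiency of the IL-36 receptor antagonist. Every group, controls included, carried the DITRA model on a strain background of 75% C57BL/6NTac 25% 129S6/SvEvTac. Skin came from 3 mice given water and PBS, 6 given imiquimod (IMQ, a drug that provokes psoriasis-like dermatitis) and PBS, 7 given IMQ and anti-human IL-36R, and 7 given IMQ and anti-mouse IL-12p40, which binds the subunit shared by IL-12 and IL-23. Colon came from 5 mice given water and PBS, 6 given dextran sulphate sodium (DSS, which injures the colon lining) and PBS, 8 given DSS and anti-human IL-36R, and 7 given DSS and anti-mouse IL-12p40. The labels used here give no age, dose or day, and do not say how the model was engineered or which cells carry its alleles. Mice without the DITRA model were not analysed here.

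Dividing cells load the MCM helicase on replication origins in G1, fire those origins in S phase under cyclin E and the E2F factors, and then build the spindle and separate the chromosomes under cyclin B, Cdk1, Plk1 and the Aurora kinases. The licensing and fork genes are transcribed from late G1 through E2F sites, and many G2/M genes later in the cycle through CHR elements and CCAAT boxes. In skin the dividing cells are mainly basal keratinocytes and the matrix of growing hair follicles, and in colon mainly the transit-amplifying cells of the crypts, beside activated lymphocytes in both.

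The promoters of 5 genes that carried differences described below are printed, so that promoters with E2F sites, with CHR elements and with neither can be compared. Each is read 5′ to 3′ on the gene's own strand of the RefSeq GRCm38.p6 genome from 250 bases before to 30 bases after the annotated start. Capitals mark every match to an E2F site (TTTCCCGC, TTTGGCGC, TTTGCCGC, TTTCGCGC, TTTGGCGG or TTTCCCGG), a CHR element (TTTGAA or TTCGAA) or a CCAAT box (CCAAT), on either strand. Mcm5, a helicase subunit, is shown from chr8:75109259-75109538 on the plus strand, Pcna, the sliding clamp of the fork, from chr2:132253151-132253430 on the minus strand, and E2f2, an activating E2F factor, from chr4:136172024-136172303 on the plus strand. Cdc20, which activates the anaphase-promoting complex, is shown from chr4:118437314-118437593 on the minus strand, and Kif23, a motor of the central spindle, from chr9:61946770-61947049 on the minus strand.
Mcm5: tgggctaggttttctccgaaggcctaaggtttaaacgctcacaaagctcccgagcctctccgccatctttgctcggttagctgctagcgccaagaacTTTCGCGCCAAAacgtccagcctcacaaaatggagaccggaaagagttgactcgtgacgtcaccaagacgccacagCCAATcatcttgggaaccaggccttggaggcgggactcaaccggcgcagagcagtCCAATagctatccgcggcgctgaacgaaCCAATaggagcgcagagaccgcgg
Pcna: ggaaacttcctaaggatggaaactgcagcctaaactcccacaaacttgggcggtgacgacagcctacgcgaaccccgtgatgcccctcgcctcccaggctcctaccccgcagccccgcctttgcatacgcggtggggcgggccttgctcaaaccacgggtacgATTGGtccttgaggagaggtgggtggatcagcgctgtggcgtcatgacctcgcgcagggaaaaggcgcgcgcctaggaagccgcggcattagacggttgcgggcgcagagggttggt
E2f2: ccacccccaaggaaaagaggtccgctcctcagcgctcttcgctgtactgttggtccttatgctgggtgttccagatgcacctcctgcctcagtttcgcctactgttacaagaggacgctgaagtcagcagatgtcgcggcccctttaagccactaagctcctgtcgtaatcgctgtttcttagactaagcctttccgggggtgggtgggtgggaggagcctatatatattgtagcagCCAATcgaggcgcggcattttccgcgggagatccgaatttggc
Cdc20: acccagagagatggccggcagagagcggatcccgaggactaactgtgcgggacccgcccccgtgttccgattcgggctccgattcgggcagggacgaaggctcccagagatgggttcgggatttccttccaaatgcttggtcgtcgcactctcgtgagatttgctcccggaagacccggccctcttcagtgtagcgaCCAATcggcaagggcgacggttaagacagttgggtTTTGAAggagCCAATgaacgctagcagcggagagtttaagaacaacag
Kif23: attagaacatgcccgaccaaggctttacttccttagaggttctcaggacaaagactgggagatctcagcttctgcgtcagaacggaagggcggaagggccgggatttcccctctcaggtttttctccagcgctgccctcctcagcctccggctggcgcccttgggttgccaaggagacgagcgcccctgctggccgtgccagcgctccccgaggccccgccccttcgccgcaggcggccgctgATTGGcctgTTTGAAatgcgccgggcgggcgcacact

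The Mcm5 stretch held 2 overlapping E2F matches and 3 CCAAT boxes, while the Pcna stretch held 1 CCAAT box and neither other motif. Cdc20 held 1 CHR element beside 2 CCAAT boxes, and Kif23 held 1 CHR element beside 1 CCAAT box. The E2f2 stretch held 1 CCAAT box. Its E2F matches lay at or past the end of what is printed. Promoters of 32 of the 39 genes were in the RefSeq table, each searched over 300 bases, 250 before the start and 50 after. An E2F site was found in 10 of the 32, or 31.2%, against 4.55% of all 27025 genes of the table. A CHR element was found in 15, or 46.9%, against 21.7%, and a CCAAT box in 24, or 75.0%, against 41.1%. The motifs differed by role: 6 of 7 licensing genes but 1 of 9 spindle genes had an E2F site. A CHR element was found in 6 of 9 spindle genes, 4 of 5 G2/M genes and 2 of 7 licensing genes. Of the 5 fork genes 0 had an E2F site and 0 a CHR element, while 3 had a CCAAT box. These are matches of letters, and binding was not measured.

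Library totals ran from 14.72 to 19.68 M expected counts in skin and from 15.08 to 18.66 M in colon, where M is 1e6, and all 39 genes passed the filter on low counts in both tissues. Levels are CPM, counts per 1e6 of the library total scaled by TMM, within each tissue's own table, so levels are not compared between tissues or between genes. A gene was called at an adjusted p under 0.05 in edgeR's quasi-likelihood test with Benjamini-Hochberg adjustment over all genes tested. Each p-value tests a difference between groups against the spread between these libraries. Counts of log2 differences above or below 0 have no test, since the genes of a list were measured in the same libraries. Tissue labels were checked by summed marker levels, each on its own tissue's scale. Basal keratinocyte markers summed to at least 10690 CPM in every skin library and to at most 713 CPM in colon, except DSS PBS replicate 6 at 3060 CPM. Colon epithelium markers summed to at least 2475 CPM, the value of that same library, in colon and to at most 837 CPM in skin. In all, 4 libraries stood apart in ways that touch the results. Skin water replicate 3 had a mean log2 CPM over the 39 genes of 4.84 against 5.71 and 5.47 in the other 2, and a summed activated keratinocyte level of 4734 CPM against 13410 and 14110 CPM. DSS PBS replicate 6 held activated keratinocyte genes at 1560 CPM, while the other 5 of its group held between 4.46 and 23 CPM. Colon water replicate 4 held goblet cell genes at 56540 CPM against 7705 to 11360 CPM in the other 4, and DSS anti-IL-36R replicate 2 had the highest level of Mki67, Top2a, Ccnb1 and Pcna in its group.

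In imiquimod skin most of the genes that license origins and run the replication fork rose. Without water replicate 3, however, only Mcm3 and Mcm4 of the 39 genes were called higher. No mitotic gene was called higher with all libraries, but Bub1 and Birc5 were without water replicate 1. Against water, 10 of the 39 genes were called higher and 4 lower, that is 25.6% and 10.3%, while 15.5% of all 15345 genes tested were called higher and 17.5% lower. Their median log2 difference was 0.18 against -0.03 for all genes. The higher calls were 6 of 8 licensing genes, 3 of 5 fork genes and Ccne1. The lower calls were E2f2 and 3 of 11 spindle genes, and 0 of 8 G2/M genes were called, with 0 at an unadjusted p under 0.05. In bulk RNA a change in the number of dividing cells and a change in RNA per cell cannot be told apart.

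**Figure D1:**
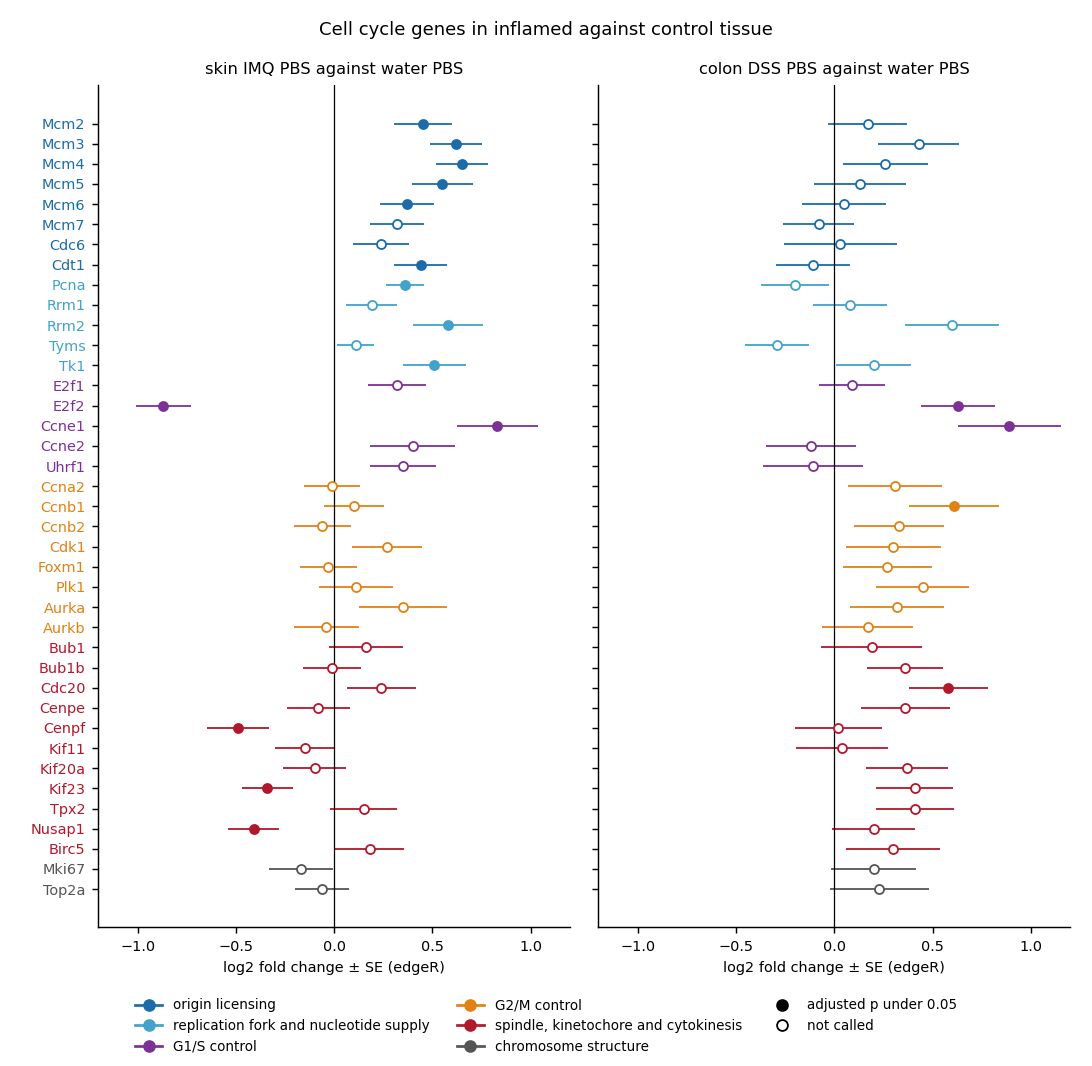
Log2 difference of each of the 39 genes between disease and water mice given PBS, for skin (IMQ) and colon (DSS), ordered by role. Bars are standard errors of the edgeR fit and filled points were called at an adjusted p under 0.05. In skin the licensing genes lie between 0.24 and 0.65, and E2f2 is at -0.87 in skin and 0.63 in colon.

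Mcm4 and Mcm3, subunits of the MCM helicase, rose the most among the licensing genes. Mcm4 (Entrez 17217, chr16:15623897-15637400) was at 69.2, 59.3 and 43.8 CPM in the 3 water libraries and between 78.5 and 101.1 CPM, with a median of 88.2, in the 6 IMQ PBS libraries. Every IMQ PBS library was above every water library, and the log2 difference was 0.65 ± 0.131 (SE, adjusted p = 0.001194 in edgeR). Mcm3 (Entrez 17215, chr1:20802966-20820312) was at 57.1, 46.4 and 35.5 CPM in water and between 63.4 and 80.6 CPM, median 70.3, in IMQ PBS. Its groups did not overlap either, with a log2 difference of 0.62 ± 0.132 (adjusted p = 0.001748 in edgeR).

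The other helicase subunits and loading factors moved the same way by less. Mcm5 was at 73.4, 63.2 and 41.0 CPM in water and at 75.9 to 100.7 CPM, median 84.1, in IMQ PBS, a log2 difference of 0.55 ± 0.154 (adjusted p = 0.0101 in edgeR), with no overlap. Mcm2 was at 61.8, 51.7 and 34.3 CPM in water and at 60.5 to 78.3 CPM, median 66.5, in IMQ PBS, so that 1 water library lay among the IMQ libraries. Its log2 difference was 0.45 ± 0.148 (adjusted p = 0.02324 in edgeR). Cdt1, which loads the helicase onto origins, rose by 0.44 (adjusted p = 0.0156 in edgeR), from 18.03, 18.7 and 11.9 CPM to between 20.2 and 23.8 CPM without overlap. Mcm6 rose by 0.37 (adjusted p = 0.04533 in edgeR), while Mcm7 at 0.32 and Cdc6, the other loader, at 0.24 were not called.

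Among the fork and nucleotide genes, Pcna, Rrm2 and Tk1 rose, though none of them was called without water replicate 3. Pcna (Entrez 18538, chr2:132249286-132253180) was at 108, 93.5 and 71.3 CPM in water and at 107 to 125 CPM, median 116, in IMQ PBS. The ranges touched at 1 library each, and the log2 difference was 0.36 ± 0.0988 (adjusted p = 0.008713 in edgeR). Rrm2, the regulated subunit of ribonucleotide reductase, was at 62.6, 60.6 and 36.7 CPM in water and at 66.5 to 91.0 CPM, median 80.9, in IMQ PBS, without overlap. Its log2 difference was 0.58 ± 0.179 (adjusted p = 0.01712 in edgeR), and that of Tk1, the thymidine kinase of S phase, was 0.51 ± 0.162 (adjusted p = 0.02078 in edgeR).

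The genes of G1/S control split. Ccne1 (cyclin E1, Entrez 12447, chr7:38097984-38107490), which drives entry into S phase, was at 8.94, 8.998 and 4.45 CPM in water and at 12.6 to 14.1 CPM, median 13.1, in IMQ PBS. All 6 IMQ PBS libraries were above the 3 water libraries, with a log2 difference of 0.83 ± 0.207 (adjusted p = 0.005072 in edgeR), the largest rise among the 39 genes. E2f2 (Entrez 242705, chr4:136172274-136196057) went the other way, from 29.9, 32.4 and 31.2 CPM in water to between 13.2 and 20.6 CPM, median 16.7, in IMQ PBS. The groups were well separated, and the log2 difference was -0.87 ± 0.139 (adjusted p = 0.0002608 in edgeR). E2f1, the other activator E2F factor of the list, was at 0.32 ± 0.146 (adjusted p = 0.09752 in edgeR) and was not called.

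Of the genes that act from G2 to the end of mitosis, Cenpf, Nusap1 and Kif23 were called lower and none higher with all libraries. Cenpf, a kinetochore protein, was at 88.7, 73.7 and 42.6 CPM in water and at 39.8 to 55.6 CPM, median 49.96, in IMQ PBS, a log2 difference of -0.49 ± 0.156 (adjusted p = 0.01983 in edgeR). Nusap1, which bundles spindle microtubules, was at 48.8, 42.3 and 27.2 CPM in water and at 23.5 to 36.6 CPM in IMQ PBS, a log2 difference of -0.41 ± 0.130 (adjusted p = 0.0213 in edgeR). Kif23 fell by 0.34 (adjusted p = 0.0466 in edgeR), from 54.7, 45.3 and 29.0 CPM to between 30.3 and 36.1 CPM. For all 3 genes water replicates 1 and 2 were above every IMQ PBS library and replicate 3 was not, so the groups overlapped. None of the 3 was called without water replicate 1, without water replicate 2, or when the 2 groups were fitted alone.

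The usual proliferation markers did not separate the groups. Mki67, the Ki-67 antigen (Entrez 17345, chr7:135689784-135716450), was at 515, 438 and 263 CPM in water and at 272 to 458 CPM, median 358, in IMQ PBS, a log2 difference of -0.17 ± 0.162 (adjusted p = 0.4211 in edgeR). Top2a, topoisomerase II alpha, was at 284, 237 and 153 CPM in water and at 185 to 247 CPM in IMQ PBS, with a difference of -0.06 ± 0.138 (adjusted p = 0.7554 in edgeR). Ccnb1, cyclin B1, was at 0.10 ± 0.154 (adjusted p = 0.6458 in edgeR), and Aurka, the Aurora A kinase of the spindle poles, at 0.35 ± 0.223 (adjusted p = 0.2248 in edgeR). For Mki67 and Top2a the 3 water libraries spanned the whole range of the 6 IMQ PBS libraries and went beyond it at both ends.

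Genes of the same pathway outside the 39 are given beside the shares of all genes, 15.5% higher and 17.5% lower. Of 31 other replication genes, 11 (35.5%) were called higher and 0 lower, all 31 log2 differences were above 0, and their median was 0.28. The signs have no test, and the share of all genes above 0 was not counted. Orc1, a subunit of the origin recognition complex, rose by 1.02 ± 0.263 (adjusted p = 0.006074 in edgeR) and Gmnn, the inhibitor of Cdt1, by 0.70 ± 0.163 (adjusted p = 0.003063 in edgeR). Of 39 other mitosis genes 0 were called higher and 1 (2.56%) lower, with a median of -0.01, so the share of lower calls was below that of all genes. That gene was Aspm, a spindle pole protein, at -0.48 ± 0.162 (adjusted p = 0.02715 in edgeR).

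Among the repair and S phase checkpoint genes the chromatin remodeller Hells rose by 0.57 ± 0.170 (adjusted p = 0.01518 in edgeR). Among 14 G1 cyclins, kinases and E2F partners 6 were called higher and 1 lower, against 15.5% and 17.5% of all genes. E2f7, a repressor E2F factor, rose by 1.0 ± 0.267 (adjusted p = 0.007413 in edgeR), and Ccnd2 (cyclin D2) went from a mean of 161 CPM in water to 75.8 CPM in IMQ PBS, a log2 difference of -1.09 ± 0.201 (adjusted p = 0.0006866 in edgeR). Of 14 cell cycle inhibitors tested 1 was called higher and 3 lower, against 15.5% and 17.5% of all genes, so the share of lower calls was near that of all genes. The lower ones included Cdkn2c at -0.85 ± 0.150 (adjusted p = 0.0004987 in edgeR) and Cdkn1b, which encodes p27, at -0.49 ± 0.126 (adjusted p = 0.005982 in edgeR).

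Marker genes of several cell types moved with imiquimod. From water to IMQ PBS, neutrophil markers had medians of 1680 and 10740 CPM. Suprabasal keratinocyte markers had medians of 34980 and 12650 CPM, with ranges that overlapped. Basal keratinocyte markers summed to 10690, 14190 and 16870 CPM at their lowest, median and highest in water and to 22390, 26400 and 32220 CPM in IMQ PBS, and 4 of 6 were called higher. Activated keratinocyte markers, all 4 called higher, had medians of 13410 and 41240 CPM. Hair matrix markers, 4 of 7 called lower, ran from 14.6 to 327 CPM in water and from 5.63 to 24.1 CPM in IMQ PBS. T cell markers ran from 20.8 to 34.1 CPM in water and from 7.39 to 15.4 CPM in IMQ PBS, with 4 of 5 called lower, and fibroblast markers had medians of 14750 and 7368 CPM. The part of these shifts in the changes of the 39 genes was not tested.

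Each water library bore on the calls in skin. Without replicate 3, 6 of the 39 genes were called, Mcm3 and Mcm4 higher and E2f2, Cenpf, Kif23 and Nusap1 lower. Without replicate 1, 16 were called, with E2f2 the only lower one and Bub1, a kinase of the spindle checkpoint, and Birc5 (survivin) among the higher ones. Without replicate 2, 10 were called, again with E2f2 alone lower. Mcm3, Mcm4 and E2f2 were the 3 of the 14 called genes that were called under all 16 alternatives tried.

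In the DSS colon fewer genes of the list passed the test. The spread between libraries was also wider there, with a common biological coefficient of variation in edgeR of 0.290 against 0.201 in skin. The number of calls therefore does not compare the size of the response between tissues. Against water, 4 of the 39 genes were called higher and 0 lower, or 10.3% and 0.0%, while 17.6% of the 15731 genes tested were called higher and 14.7% lower, so the share of higher calls was below that of all genes. Of the 39 differences 33 were above 0, with a median of 0.23. This is a description with no test, since the genes share their libraries, and the share of all genes above 0 was not counted. Ccne1 and E2f2 of G1/S control, Ccnb1 of G2/M control and Cdc20 of the spindle group were called. No licensing or fork gene was called, at medians of 0.09 and 0.08, while the medians of the G2/M and spindle genes were 0.32 and 0.36.

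Ccne1 was at 4.38, 4.79, 2.78, 3.54 and 4.06 CPM in the 5 water libraries and at 4.87 to 8.41 CPM, median 7.49, in the 6 DSS PBS libraries. The groups did not overlap, and the log2 difference was 0.89 ± 0.262 (adjusted p = 0.01173 in edgeR). E2f2 was at 32.7, 38.5, 27.03, 34.6 and 26.3 CPM in water and at 39.8 to 58.6 CPM, median 49.1, in DSS PBS. It too was higher in every DSS PBS library, by 0.63 ± 0.187 on the log2 scale (adjusted p = 0.01202 in edgeR), whereas in skin it had been lower in every IMQ PBS library.

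Ccnb1, the cyclin that activates Cdk1 for mitosis (Entrez 268697, chr13:100778739-100786486), was at 17.96, 21.9, 23.3, 15.2 and 21.2 CPM in water and at 23.7 to 41.7 CPM, median 27.5, in DSS PBS. The ranges did not overlap but lay close, with a log2 difference of 0.61 ± 0.229 (adjusted p = 0.0441 in edgeR). Cdc20 (Entrez 107995, chr4:118432901-118437343) was at 13.2, 17.4, 20.7, 14.8 and 20.97 CPM in water and at 20.2 to 36.05 CPM, median 24.5, in DSS PBS. Its lowest DSS PBS library lay within the water range, and the difference was 0.58 ± 0.201 (adjusted p = 0.03012 in edgeR).

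Rrm2 and Mcm3 were also higher in every DSS PBS library than in every water library but were not called, at 0.60 ± 0.239 (adjusted p = 0.05711 in edgeR) and 0.43 ± 0.207 (adjusted p = 0.1131 in edgeR). Mki67 was at 185, 252, 326, 159 and 242 CPM in water and at 195 to 318 CPM, median 272, in DSS PBS, a difference of 0.20 ± 0.215 (adjusted p = 0.5212 in edgeR). Top2a at 0.23 ± 0.251, Mcm2 at 0.17 ± 0.200 and E2f1 at 0.09 ± 0.167 were not called either. Pcna was at 89.4, 78.7, 72.8, 70.0 and 83.8 CPM in water and at 59.5 to 79.5 CPM, median 68.5, in DSS PBS, with a difference of -0.20 ± 0.175 (adjusted p = 0.4176 in edgeR). The Mki67 and Pcna ranges of the groups overlapped widely.

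Of the other replication genes in colon, 2 of 31 were called higher and 0 lower, against 17.6% and 14.7% of all genes, with a median of 0.05. These were Dbf4, the activator of the Cdc7 kinase, at 0.56 ± 0.181 (adjusted p = 0.02111 in edgeR) and the primase subunit Prim2 at 0.54 ± 0.170 (adjusted p = 0.01733 in edgeR). Of 39 other mitosis genes 3 were called higher and 2 lower, at a median of 0.25, and both shares were below those of all genes. Cks1b, a partner of Cdk1, rose by 0.70 ± 0.209 (adjusted p = 0.01237 in edgeR), and Hjurp, a chaperone of the centromeric histone, was lower at -0.93 ± 0.243 (adjusted p = 0.005012 in edgeR), but its span overlaps the gene Mroh2a.

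No repair gene was called in colon, and among the G1 kinases and E2F partners Cdk6 was lower at -0.81 ± 0.209 (adjusted p = 0.004892 in edgeR) and E2f3 at -0.41 ± 0.128 (adjusted p = 0.01753 in edgeR). Of 15 inhibitors 2 were called higher and 1 lower, against 17.6% and 14.7% of all genes, so neither share was above that of all genes. Cdkn2b, the kinase inhibitor p15, fell by 0.81 ± 0.232 (adjusted p = 0.009853 in edgeR). Cdkn2a was called higher from a very low level, a mean of 0.0472 CPM in water and 1.12 CPM in DSS PBS.

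Markers of immune and stromal cells moved with DSS. From water to DSS PBS, neutrophil markers had medians of 58.56 and 1422 CPM and plasma cell markers of 538.5 and 2466 CPM. B cell markers had medians of 52.11 and 166.6 CPM, with ranges that overlapped. T cell markers, all 5 called higher, ran from 10.98 to 15.5 CPM in water and from 7.46 to 90.2 CPM in DSS PBS, and germinal centre B cell markers from 15.5 to 19.8 CPM and from 16.8 to 57.4 CPM. The germinal centre list is not particular to those cells, as it summed to 28.85 to 35.61 CPM in water skin on that tissue's own scale. Fibroblast markers, all 6 called higher, had medians of 2754 and 6672 CPM, and 3 of 4 colonocyte markers were called lower. Colon stem cell markers ran from 131 to 161 CPM in water and from 107 to 145 CPM in DSS PBS. Their sum is not particular to colon stem cells, as it was 181.4 to 202.6 CPM in water skin on that tissue's own scale. The part of these shifts in the changes of the 39 genes was not tested. The same 4 genes were called without DSS PBS replicate 6, the library with keratinocyte markers, and 2, Ccne1 and E2f2, without water replicate 1, 2 or 4 or without DSS PBS replicate 2 or 5. Those 2 were called under all 16 alternatives tried.

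**Figure D2:**
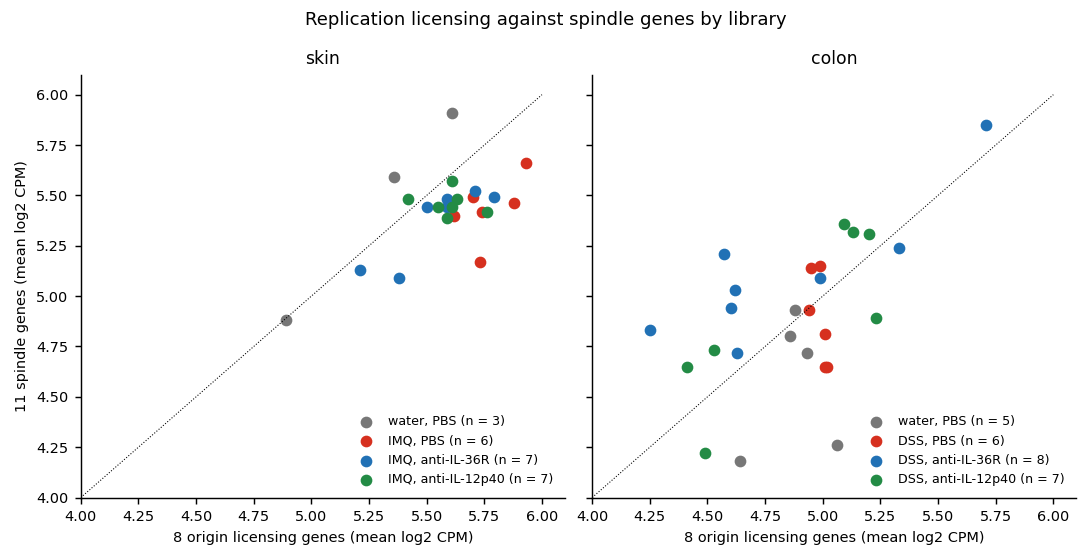
Mean log2 CPM of the 8 licensing genes (x axis) against that of the 11 spindle genes (y axis), for skin and colon, with 1 point per library coloured by group and a dotted line where both are equal. The 6 IMQ PBS skin libraries lie below the line, by 0.21 to 0.56, while 2 of the 3 water libraries lie above it.

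The balance of licensing against spindle genes within a library sets the roles side by side. The mean log2 CPM of the licensing genes minus that of the spindle genes was -0.30, -0.23 and 0.02 in skin water and 0.21 to 0.56, median 0.30, in IMQ PBS, with no overlap. It was 0.06 to 0.30 in IMQ anti-IL-36R and -0.06 to 0.34 in IMQ anti-IL-12p40, between the other groups in its median of 0.15 in each. In colon it ran from -0.05 to 0.79 in water, from -0.19 to 0.37 in DSS PBS, from -0.63 to 0.09 in DSS anti-IL-36R and from -0.27 to 0.33 in DSS anti-IL-12p40. All 4 colon groups overlapped. These are descriptions with no test.

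The difference between tissues was tested as an interaction, the IMQ effect in skin minus the DSS effect in colon, in 1 fit of all 8 groups. Of the 39 genes 1 was called higher and 2 lower, against 8.95% and 13.4% of the 16818 genes tested, and their median was -0.02. E2f2 differed the most, at -1.46 ± 0.249 on the log2 scale (adjusted p = 3.811e-05 in edgeR), having fallen in skin and risen in colon. Pcna differed by 0.60 ± 0.218 (adjusted p = 0.04097 in edgeR) and Kif23 by -0.71 ± 0.248 (adjusted p = 0.03456 in edgeR). The role medians were 0.40 for licensing, 0.36 for the fork, 0.27 for G1/S control, -0.27 for G2/M control and -0.32 for the spindle, but the licensing genes had 0 calls in this test. Cdt1 came nearest among them at 0.60 ± 0.244 (adjusted p = 0.07106 in edgeR). Mki67 at -0.32 ± 0.287, Top2a at -0.24 ± 0.312 and Ccnb1 at -0.46 ± 0.291 were not called. Without skin water replicate 3, or without DSS PBS replicate 6, E2f2 and Kif23 were called and Pcna was not, and without colon water replicate 4 E2f2 and Pcna were called and Kif23 was not.

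**Figure D3:**
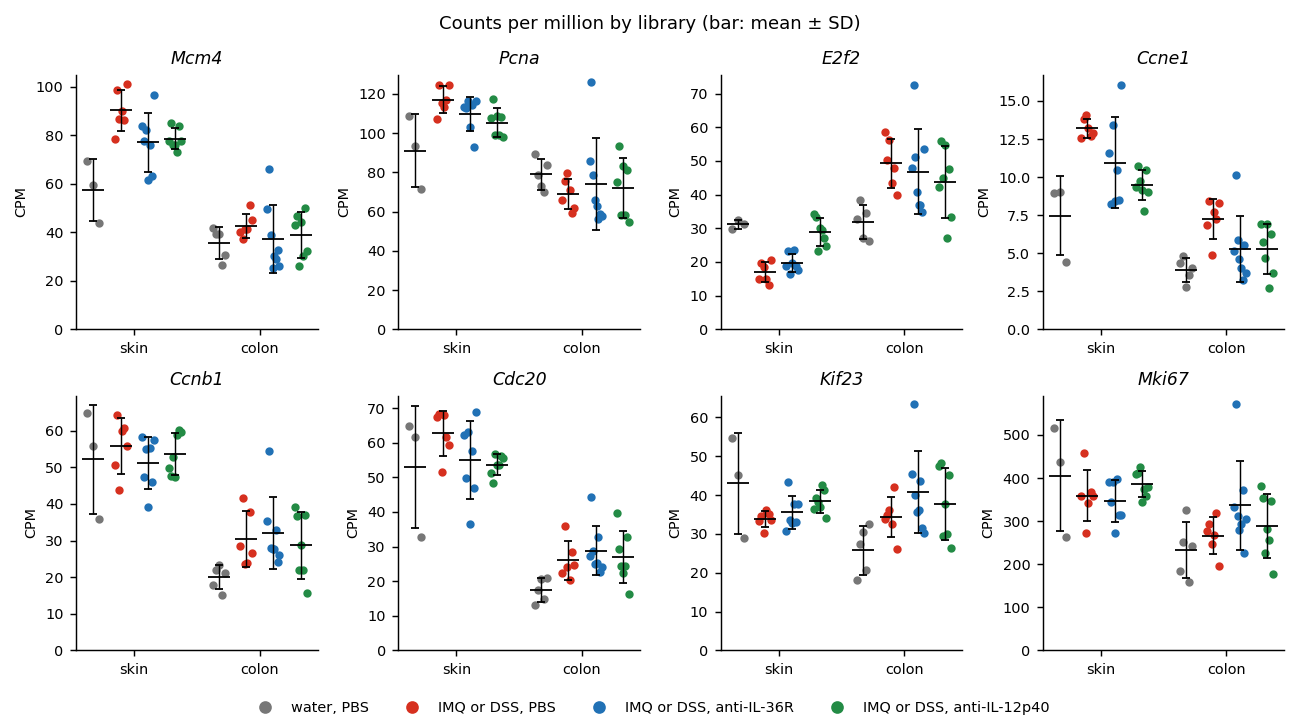
CPM of 8 genes of the list in every library, by group, in skin and colon. The y axis starts at 0, points are libraries, bars are the mean ± SD, and each tissue was scaled on its own. E2f2 in skin is lowest in the IMQ PBS group, between 13.2 and 20.6 CPM, and DSS anti-IL-36R replicate 2 is high in colon, with Mki67 at 571 CPM.

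In skin, no gene of the list passed the threshold between anti-IL-36R and IMQ PBS. The test called 0 of 39 higher and 0 lower, against 3.29% and 0.919% of all genes, with 8 at an unadjusted p under 0.05. Of the 39 log2 differences 33 were below 0, with a median of -0.15. This is a description with no test, since the genes share their libraries, and the share of all genes below 0 was not counted. Tk1 had the lowest adjusted p, at -0.39 ± 0.124 (adjusted p = 0.07713 in edgeR), from 25.8 to 38.1 CPM in IMQ PBS to between 16.96 and 29.9 CPM under the antibody, where the groups overlapped.

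The licensing genes had the lowest role median, -0.23, led by Mcm2 at -0.29 ± 0.114 (adjusted p = 0.144 in edgeR), which ran from 39.8 to 66.2 CPM under the antibody. The values for the mitotic regulators Foxm1 and Birc5 were both -0.25 (adjusted p = 0.2006 and 0.288 in edgeR). E2f2 was not called, at 16.5 to 23.5 CPM under the antibody and 13.2 to 20.6 CPM in IMQ PBS. Mki67 at -0.05 ± 0.129, Top2a at -0.04 ± 0.108, Ccnb1 at -0.12 ± 0.120, Pcna at -0.09 ± 0.0765 and E2f1 at -0.16 ± 0.113 were not called. The DESeq2 Wald test called 1 gene, Tk1, and limma-voom with sample weights called 8, all lower, namely Mcm2, Mcm3, Mcm4, Mcm5, Mcm7, Cdt1, Tk1 and Ccne1. Without IMQ PBS replicate 1 or anti-IL-36R replicate 3 or 7, edgeR called Tk1 lower.

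Under anti-IL-12p40 E2f2 rose in IMQ skin. Against IMQ PBS, 2 of the 39 genes were called higher and 0 lower, against 5.32% and 3.49% of all genes, so the count was not above that of all genes. Its log2 difference was 0.76 ± 0.114 (adjusted p = 0.001078 in edgeR), from 13.2 to 20.6 CPM in IMQ PBS to between 23.2 and 34.2 CPM, median 29.4, under the antibody. The 2 groups did not overlap, and the antibody group spanned the 3 water values of 29.9, 32.4 and 31.2 CPM. The disease comparison uses the same IMQ PBS libraries, so the fall of E2f2 with IMQ and this rise are not independent. Nusap1 rose by 0.33 ± 0.104 (adjusted p = 0.04777 in edgeR), from 23.5 to 36.6 CPM to between 34.6 and 40.9 CPM.

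Ccne1 was lower in all 7 anti-IL-12p40 libraries, at 7.79 to 10.8 CPM, than in all 6 IMQ PBS libraries, at 12.6 to 14.1 CPM, but was not called by edgeR. The DESeq2 Wald test, limma-voom and the fit of the 2 groups alone called it lower. limma-voom also called Tk1 and Mcm4 lower, and the fit of the 2 groups alone Tk1 and Cdc20. Tk1 at -0.35 ± 0.124 (adjusted p = 0.07839 in edgeR), Mcm4 at -0.20 ± 0.0999, Mcm2 at -0.19 ± 0.114, Pcna at -0.15 ± 0.0764 and Mki67 at 0.10 ± 0.129 were not called with all libraries. Among the other lists Ccnd2 rose by 0.63 ± 0.165 (adjusted p = 0.02024 in edgeR), as did the growth-arrest genes Cdkn1b by 0.36 ± 0.102 and Rbl2 by 0.32 ± 0.0745. E2f2 was called under all 20 alternatives tried and Nusap1 under 5, and Nusap1 was lost without any 1 of the 7 antibody libraries or IMQ PBS replicate 1, 3, 4, 5 or 6. Without IMQ PBS replicate 1 Tk1 was called lower. Hair matrix markers were high in anti-IL-12p40 replicate 2, at 1306 CPM. T cell markers ran from 15.5 to 26.8 CPM in this group and from 11.1 to 21.96 CPM under anti-IL-36R, against 7.39 to 15.4 CPM in IMQ PBS, and their part in the E2f2 difference was not tested.

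The antibodies were also compared with each other in skin. Between them 0 of the 39 genes were called, against 0.013% of all genes higher and 0.0326% lower, with 2 at an unadjusted p under 0.05. E2f2 came nearest, lower under anti-IL-36R than under anti-IL-12p40 by 0.55 ± 0.108 on the log2 scale (adjusted p = 0.08713 in edgeR), with 16.5 to 23.5 CPM against 23.2 to 34.2 CPM, which overlapped at their ends. DESeq2's Wald test called it lower, as did edgeR without anti-IL-12p40 replicate 3, while limma-voom called 0.

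Against water, Mcm3 and Mcm4 were called higher in both antibody groups, but neither call held without water replicate 3. The comparisons below share their water libraries with the disease comparison, so they are not independent of it. Under anti-IL-36R 2 genes were called higher and 2 lower, against 5.97% and 7.17% of all genes. Mcm4 was higher by 0.43 ± 0.127 (adjusted p = 0.03112 in edgeR) and Mcm3 by 0.39 ± 0.128 (adjusted p = 0.0493 in edgeR), and the lower genes were E2f2 at -0.66 ± 0.136 (adjusted p = 0.004315 in edgeR) and Cenpf at -0.49 ± 0.152 (adjusted p = 0.03708 in edgeR). Under anti-IL-12p40 the 2 higher genes were Mcm3 at 0.47 ± 0.129 (adjusted p = 0.03853 in edgeR) and Mcm4 at 0.45 ± 0.127 (adjusted p = 0.04391 in edgeR), and 0 were lower, against 2.41% and 2.39% of all genes. Without water replicate 3 the calls under anti-IL-36R were 7 genes, all lower (E2f2, Ccnb2, Foxm1, Cenpe, Cenpf, Kif23 and Nusap1), and under anti-IL-12p40 1 gene, Cenpf, lower. Without water replicate 2, or anti-IL-36R replicate 7, E2f2 alone was called under anti-IL-36R, and without anti-IL-36R replicate 1 E2f2 and Cenpf were. Under anti-IL-12p40 none of the 39 was called without water replicate 2 or antibody replicate 3, 6 or 7, and Mcm3 alone without antibody replicate 1, 4 or 5. Of these calls only E2f2 under anti-IL-36R held in every alternative tried.

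In colon no gene of the list passed the test between either antibody and DSS PBS. Under anti-IL-36R 0 of 39 were called higher and 0 lower, against 1.16% and 5.45% of all genes, with 1 at an unadjusted p under 0.05. Under anti-IL-12p40 0 were called either way, against 0.0191% and 1.13%, with 0 at an unadjusted p under 0.05. DESeq2's Wald test and limma-voom called 0 in both comparisons too. Cenpf had the lowest p under anti-IL-36R, at 0.42 ± 0.198 (adjusted p = 0.2009 in edgeR), with Ccne1 at -0.45 ± 0.227 (adjusted p = 0.2309 in edgeR) and Mki67 at 0.34 ± 0.193 (adjusted p = 0.298 in edgeR). Without DSS anti-IL-36R replicate 2, which held the highest proliferation levels, Ccne1 was called lower.

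Outside the 39 genes Ccnd3 (cyclin D3) was lower under anti-IL-36R, at -0.37 ± 0.0987 (adjusted p = 0.02317 in edgeR), and Cdkn2a was called lower, at a mean of 0.38 CPM against 1.12 CPM in DSS PBS. Between the 2 antibodies in colon 0 of the 39 were called, against 0.0% of all genes higher and 0.0% lower, with 0 at an unadjusted p under 0.05. Neither DESeq2 nor limma-voom called one.

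Several mitotic genes were called higher than in water in the colon of mice given DSS and anti-IL-36R. The comparisons of both antibody groups with water share their water libraries with the DSS PBS comparison. They are therefore not independent of it or of each other, and a gene called in several of them is not a repeated finding. Under anti-IL-36R 7 of the 39 genes were called higher and 0 lower, against 6.92% and 3.01% of all genes, with 17 at an unadjusted p under 0.05 and a median of 0.43. They were Plk1 and Ccnb1 of G2/M control, Cdc20, Cenpe, Kif23 and Bub1b of the spindle group, and E2f2, while 0 of 8 licensing and 0 of 5 fork genes were called. Plk1, the polo kinase of mitotic entry, was at 15.2, 18.6, 23.6, 14.5 and 21.3 CPM in water and at 25.2 to 55.3 CPM, median 29.4, under the antibody. Its groups did not overlap, with a log2 difference of 0.79 ± 0.225 (adjusted p = 0.02584 in edgeR).

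Cdc20 was at 22.6 to 44.3 CPM, median 26.4, under anti-IL-36R, above all 5 water libraries, with a difference of 0.72 ± 0.192 (adjusted p = 0.01778 in edgeR). Cenpe, a kinetochore motor, was higher by 0.70 ± 0.217 (adjusted p = 0.0412 in edgeR), Ccnb1 by 0.69 ± 0.218 (adjusted p = 0.04519 in edgeR) and E2f2 by 0.56 ± 0.177 (adjusted p = 0.04519 in edgeR). Kif23 was higher by 0.66 (adjusted p = 0.02532 in edgeR) and the checkpoint kinase Bub1b by 0.57 (adjusted p = 0.04992 in edgeR). Mki67 at 0.53 ± 0.205 (adjusted p = 0.1049 in edgeR) and Top2a at 0.48 ± 0.239 (adjusted p = 0.2226 in edgeR) were not called, nor were Pcna at -0.09 ± 0.164 and Mcm2 at 0.06 ± 0.188.

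Of 39 other mitosis genes 5 (12.8%) were called higher and 1 (2.56%) lower, against 6.92% and 3.01% of all genes, including the kinesins Kif4 at 0.67 ± 0.198 (adjusted p = 0.03122 in edgeR) and Kif2c at 0.67 ± 0.217 (adjusted p = 0.0484 in edgeR), and of 31 other replication genes 0 were called. The count changed with single libraries. Without anti-IL-36R replicate 2 only Cdc20 and Kif23 were called, without water replicate 4 only Cdc20, and without water replicate 1 none of the 39. Without water replicate 2, 3 or 5 or anti-IL-36R replicate 1, 3 or 6 the count was 3 or 4, with Cdc20 and Kif23 called each time. None of the 7 was called under every alternative tried. Lymphocyte markers were also higher than in water. T cell markers, 4 of 5 called higher, summed to 22.8 to 51.4 CPM against 10.98 to 15.5 CPM in water, without overlap. B cell markers had medians of 133.6 and 52.1 CPM and germinal centre B cell markers of 30.7 and 17.6 CPM, with 2 of 4 called higher in each. The germinal centre list is not particular to those cells. In water skin, on that tissue's own scale, it summed to 28.85 to 35.61 CPM and B cell markers to 1.125 to 1.408 CPM. The part of these marker shifts in the mitotic differences was not tested.

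Under DSS and anti-IL-12p40 in colon, 2 of the 39 genes were called higher than in water and 0 lower, against 10.8% and 6.4% of all genes. These were Cdc20 at 0.63 ± 0.195 (adjusted p = 0.02755 in edgeR) and Kif23 at 0.55 ± 0.190 (adjusted p = 0.04737 in edgeR), both of the spindle group. None was called without water replicate 1, 2 or 4 or antibody replicate 1 or 6, Cdc20 alone without antibody replicate 2 or 4, and 5 without antibody replicate 7 (Ccnb1, Plk1, Cdc20, Cenpe and Kif23). E2f2 at 0.46 ± 0.181 (adjusted p = 0.08237 in edgeR), Plk1 at 0.59 ± 0.229 (adjusted p = 0.07539 in edgeR) and Mki67 at 0.31 ± 0.209 (adjusted p = 0.3247 in edgeR) were not called. Gmnn was lower by 0.55 ± 0.149 on the log2 scale (adjusted p = 0.01197 in edgeR) and Cdc25b, a phosphatase that activates Cdk1, higher by 0.61 ± 0.133 (adjusted p = 0.002362 in edgeR). T cell markers, all 5 called higher, summed to 38.2 to 82.8 CPM against 10.98 to 15.5 CPM in water, and B cell markers, all 4 called higher, to 144.8 to 323.1 CPM against 11.95 to 70.9 CPM. Neither overlapped, and their part in the differences of the 39 genes was not tested.

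**Figure D4:**
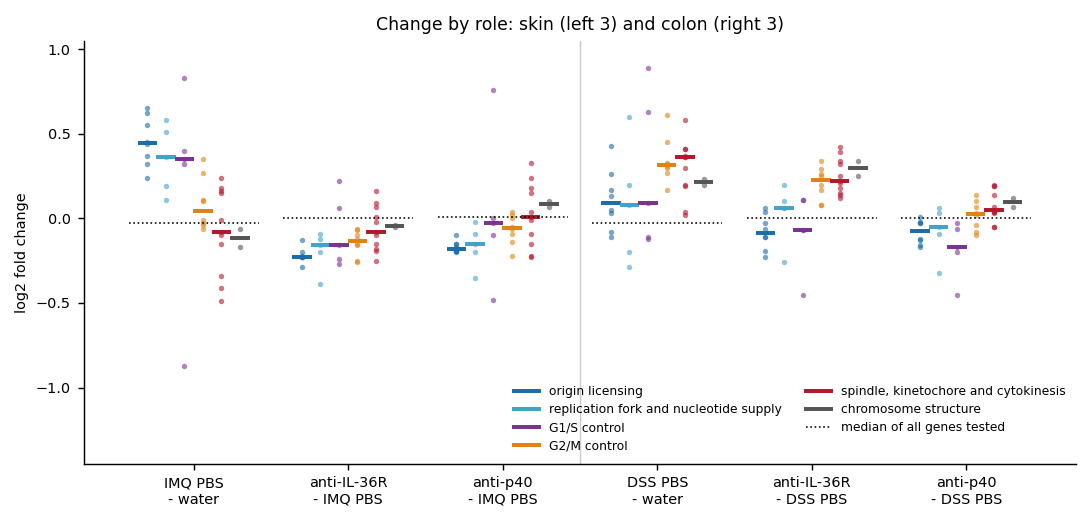
Log2 difference (y axis) of each gene in 6 comparisons, 3 in skin and 3 in colon: points are genes coloured by role, short bars are role medians and dotted lines the median of all genes tested. In IMQ PBS against water the licensing median is 0.45 and the spindle median -0.08, and in DSS PBS against water they are 0.09 and 0.36.

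The antibody effects were compared between tissues by the same kind of interaction. For anti-IL-36R 0 of the 39 genes were called, against 4.13% of all genes higher and 1.01% lower, with 2 at an unadjusted p under 0.05 and 0 called by DESeq2 or limma-voom. Of the 39 differences 36 were below 0, with a median of -0.29, a description with no test because these genes share their libraries. The share of all genes below 0 was not counted. Tyms, the enzyme that makes thymidylate, had the lowest p at -0.39 ± 0.170 (adjusted p = 0.1894 in edgeR). For anti-IL-12p40 1 gene was called higher and 0 lower, against 1.47% and 0.398% of all genes. That gene was E2f2, at 0.91 ± 0.212 (adjusted p = 0.01456 in edgeR), which rose under this antibody in skin and ran from 27.2 to 56.0 CPM, median 45.02, in colon against 39.8 to 58.6 CPM in DSS PBS. E2f2 was called under all 6 alternatives tried for this contrast. It was the one gene of the list whose response differed between tissues both to disease and to an antibody. Both contrasts use the same IMQ PBS and DSS PBS libraries, with opposite sign, so these calls are not independent.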

How the data were processed

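Skin and colon mRNA libraries were strand-specific ScriptSeq preparations of mRNA extracted with MagMAX and Dynabeads kits, per the labels' protocols. The authors deposited 1 table of expected counts per tissue, made with RSEM on mm10 per the submitters' processing notes. The RSEM version, annotation and strand setting are not given in the sources used here. In skin 16.859% and in colon 17.5% of values were not whole, and counts were rounded. Of 24475 Entrez IDs, 24375 matched a symbol. Spans of 10 of the 39 genes overlap another protein-coding gene (Mcm7, Tk1, E2f1, Ccne2, Ccna2, Foxm1, Aurka, Cdc20, Kif20a and Nusap1), and 5 genes had no whole count in any library (Tyms, E2f1, Kif11, Tpx2 and Birc5), so their counts may share reads with other loci. No pair of libraries was identical.

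Groups were tested with edgeR 4.0.16 (limma 3.58.1, R 4.3.3): filterByExpr, TMM, a quasi-likelihood F test on the 4 groups of each table fitted jointly, and Benjamini-Hochberg adjustment over 15345 skin, 15731 colon or, for the interactions, 16818 genes of both tables together. The standard error is the log2 difference divided by the square root of F. The test was also run on counts simulated from its own model, and the outcome is not used here. Alternatives were DESeq2 1.42.0 size factors and Wald test, no filter, limma-voom with sample weights, the compared groups alone, IMQ PBS replicates 1 to 3 or 4 to 6 alone, and each library left out. The interactions without single libraries were added after seeing the data. Role scores are mean log2 CPM with a prior count of 2. Promoters came from RefSeq tables on GRCm38.p6. The submitters' notes name mm10, the UCSC name of GRCm38. Printed coordinates are those of RefSeq. Tables and plots used Python 3.11.15.

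The members, roles, other lists and naming rule were chosen with earlier results of these data known. Mki67, Top2a, Ccnb1, Mcm2, Pcna and E2f1 are named in each comparison with the 2 called genes of the largest change per role, or else the gene of lowest p; in other lists, the 2 called genes of the largest change. Mcm3, Mcm5, Mcm6, Mcm7, Cdc6, Cdt1, Ccne1, Cdc20, Kif23, Bub1, Bub1b and Birc5, where named outside this rule, were chosen after their values were seen. A result among the repair genes is not reported here.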

Additional observations from a re-analysis of the deposited data

Results flagged for a closer look

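Within groups of 4 to 10 libraries, 91 sets of role scores and single genes were checked for a library far from the rest, and 10 held one. Chance alone marks about 5% of such sets, but these share libraries and genes and are not independent. The 10 of 91 therefore cannot be judged against that rate. DSS anti-IL-36R replicate 2 gave 6 of the 10. It had a mean log2 CPM of 5.71 over the G2/M genes and 5.85 over the spindle genes, with Mki67 at 570.6 CPM, Top2a at 312.7 CPM, Ccnb1 at 54.51 CPM and Pcna at 126.1 CPM, each far above the other 7 libraries of its group. Colon water replicate 4 was low for the fork genes, at a mean log2 CPM of 4.91. In the DSS PBS group replicate 2 stood apart for the fork genes at 5.59 and replicate 1 for the G1/S genes at 4.07. In skin, Top2a was low in IMQ anti-IL-12p40 replicate 4, at 212.7 CPM.

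Responses that differed between skin and colon by the interaction test were those of Pcna at 0.60, E2f2 at -1.46 and Kif23 at -0.71 to disease, and of E2f2 at 0.91 to anti-IL-12p40, all on the log2 scale as skin minus colon. Both E2f2 results rest on the same IMQ PBS and DSS PBS libraries, so they are not independent.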

How the results depend on the processing

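No called gene of the list changed its sign under an alternative. In skin, IMQ PBS against water gave 14 calls, with 8 when the 2 groups were fitted alone, 8 with IMQ PBS replicates 1 to 3 alone, 9 with replicates 4 to 6 alone, and 6 to 16 with each library left out. Anti-IL-36R against IMQ PBS gave 0, with 1 by DESeq2's Wald test, 8 by limma-voom and 0 to 1 with each library left out. Anti-IL-12p40 against IMQ PBS gave 2, with 1 without the low-count filter, 5 by limma-voom, 5 for the 2 groups alone, 1 with either set of IMQ PBS replicates alone and 1 to 2 with each library left out. Anti-IL-36R against anti-IL-12p40 gave 0, with 1 by the Wald test and 0 to 1 with each library left out. Against water, anti-IL-36R gave 4, with 1 by limma-voom, 1 for the 2 groups alone and 1 to 7 with each library left out, and anti-IL-12p40 gave 2, with 1 without the filter, 0 by limma-voom, 0 for the 2 groups alone and 0 to 2 with each library left out.

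In colon, DSS PBS against water gave 4, with 2 by limma-voom, 7 for the 2 groups alone and 2 to 5 with each library left out. Against DSS PBS, anti-IL-36R gave 0 and 0 to 1 with each library left out, and anti-IL-12p40 gave 0 throughout, as did the comparison of the antibodies. Against water, anti-IL-36R gave 7, with 3 without the filter and 0 to 7 with each library left out, and anti-IL-12p40 gave 2, with 1 without the filter, 4 by limma-voom, 1 for the 2 groups alone and 0 to 5 with each library left out. The interactions gave 3, 0 and 1, with 2, 0 and 1 in each fit that left out a library, chosen after seeing the data. The cause was not tested. No paired analysis was possible because the replicate numbers follow the order of the samples and the labels tie no skin, colon or treatment libraries to one another. With 3 water libraries in skin, leaving out 1 moved the count from 14 to 6. All 39 genes passed the low-count filter in the skin, colon and joint fits.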
